A study of Arabidopsis thaliana with 18 samples.

Results

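The comparison examined here is that of hec1hec2 with wild-type Col-0 seedlings kept at 22°C, and it rests on 6 of the 18 RNA-seq libraries of the study, 3 of each genotype, chosen by their labels and read across all expressed genes. Arabidopsis seedlings grew at 22°C in white light on MS medium that held no sucrose, and then stayed for 24 h at 22°C or were moved to 28°C, still in the light, before RNA was taken from whole seedlings. They were 5 or 6 days old at that step, since the sources differ. The other groups used here are Col-0 and hec1hec2 after 24 h at 28°C, again with 3 libraries each, and all these groups share the Col-0 background. The labels name no allele for hec1hec2, no transgene is listed, and whether the 3 libraries of a group came from separate pools of seedlings is given only as biological replicates, so that the tests measure the spread between these libraries. The remaining 6 libraries are of pifQ, a mutant named for PIF1, PIF3, PIF4 and PIF5, and were not compared here.

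The HECATE proteins HEC1, HEC2 and HEC3 are related helix-loop-helix transcription factors, known for their roles in the female reproductive tract and in the shoot meristem, and as inhibitors of the PHYTOCHROME INTERACTING FACTORs (PIFs) in light signalling. PIFs are basic helix-loop-helix factors that bind the G-box, CACGTG, and the PBE-box, CACATG or CATGTG, and activate genes of elongation growth, and they are themselves destroyed or inactivated when light activates the phytochromes. HEC proteins form dimers with PIFs and with other partners, and so can keep PIFs from DNA. The comparison at 22°C asks which transcripts differ between the genotypes before any warmth is applied. The study itself examined the mutant both at 22°C and in warmth.

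Promoters were read to place these motifs beside the genes. For each gene the 250 bases before the annotated start were taken from the RefSeq annotation of TAIR10.1, in which the 5 nuclear chromosomes are those of TAIR10, and only the strand of the gene is written, 5′ to 3′. The promoters shown are that of the targeted gene HEC1, those of 2 genes with a pair of G-boxes each, UGT79B1 of anthocyanin synthesis, which was higher in hec1hec2, and AT2G47780, which was lower, that of the clock gene PRR7, and that of MEE14, whose difference between genotypes changed with temperature. Capitals mark G-boxes in UGT79B1, AT2G47780 and PRR7, a PBE-box in HEC1 and the evening element AGATATTTT, a motif of clock-regulated promoters, in MEE14. None of these 5 windows overlaps an annotated exon.
HEC1 (chr5:26765742-26765991, plus strand): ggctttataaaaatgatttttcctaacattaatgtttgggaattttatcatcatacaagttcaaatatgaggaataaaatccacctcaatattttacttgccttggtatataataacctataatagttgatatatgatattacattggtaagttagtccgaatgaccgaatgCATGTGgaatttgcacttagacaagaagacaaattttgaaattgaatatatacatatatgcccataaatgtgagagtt
UGT79B1 (chr5:21938397-21938646, minus strand): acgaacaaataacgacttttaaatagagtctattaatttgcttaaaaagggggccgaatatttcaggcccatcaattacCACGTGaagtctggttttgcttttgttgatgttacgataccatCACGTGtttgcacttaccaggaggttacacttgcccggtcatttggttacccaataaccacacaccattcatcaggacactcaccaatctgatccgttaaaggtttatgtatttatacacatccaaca
AT2G47780 (chr2:19569790-19570039, plus strand): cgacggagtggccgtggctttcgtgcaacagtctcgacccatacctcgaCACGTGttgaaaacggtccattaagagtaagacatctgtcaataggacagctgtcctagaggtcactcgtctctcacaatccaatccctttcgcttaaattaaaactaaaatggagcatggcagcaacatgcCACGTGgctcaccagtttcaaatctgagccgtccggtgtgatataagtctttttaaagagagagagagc
PRR7 (chr5:642031-642280, minus strand): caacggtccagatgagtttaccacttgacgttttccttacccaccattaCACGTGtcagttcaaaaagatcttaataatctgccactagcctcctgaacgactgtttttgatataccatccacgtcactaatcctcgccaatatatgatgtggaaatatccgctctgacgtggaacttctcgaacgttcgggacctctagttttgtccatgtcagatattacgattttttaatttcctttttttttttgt
MEE14 (chr2:6922162-6922411, minus strand): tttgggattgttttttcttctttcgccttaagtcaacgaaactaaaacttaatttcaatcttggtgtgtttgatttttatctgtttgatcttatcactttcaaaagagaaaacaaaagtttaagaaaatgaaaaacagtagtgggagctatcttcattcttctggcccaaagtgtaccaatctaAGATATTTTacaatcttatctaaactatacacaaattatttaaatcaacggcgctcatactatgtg

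The PBE-box of HEC1 begins 78 bases before the start of the gene. The G-boxes begin 171 and 128 bases before the start in UGT79B1, 201 and 69 bases before it in AT2G47780, and 201 bases before it in PRR7. The evening element of MEE14 begins 66 bases before the start. A match to these letters is a description of the sequence, and binding was not measured here.

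Libraries were made by 3′ Tag-Seq, which reads the ends of polyadenylated transcripts, and counts therefore do not scale with the length of a gene. Library totals at 22°C ranged from 3906616 to 4753935 counts in Col-0 and from 4661888 to 6285632 in hec1hec2. The 12 Col-0 and hec1hec2 libraries were fitted together with edgeR's quasi-likelihood test. A gene is described as called where it changed by 2-fold or more and its p-value, adjusted after Benjamini and Hochberg over the 17828 genes tested (FDR), was 0.05 or lower. Levels are given as CPM, counts normalised to a common library size after TMM scaling, and differences are log2 fold changes of hec1hec2 over Col-0 with their standard errors (SE, n = 3 libraries a group). Shoot and root marker genes were counted in every library, as whole seedlings require. The first hec1hec2 library at 22°C, the deepest, had a chi-square per gene of 5.07 and 3.68 against its 2 replicates, where the other pairs at 22°C gave 1.88 to 2.59, but this measure grows with depth. Its correlation with them in log CPM across genes was 0.978 and 0.981, no lower than that of the first Col-0 library with its own (0.978 and 0.979). Transcripts from fewer cells and less RNA per cell cannot be told apart in whole seedlings.

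The targeted genes were examined before all others, and HEC1 went against the label. HEC1 (AT5G67060, chromosome 5) had 33, 64 and 34 counts in the Col-0 libraries at 22°C and 3308, 3289 and 3282 counts in the hec1hec2 libraries. The groups lie far apart, with 8.60, 14.8 and 7.31 CPM against 575, 693 and 736 CPM, and the log2 fold change was 6.02 (SE 0.16, FDR = 2.6e-22, edgeR's quasi-likelihood test). The same held after 24 h at 28°C, with 39, 47 and 68 counts against 2691, 3271 and 2818 counts. HEC2 (AT3G50330, chromosome 3) had 3, 14 and 10 counts in Col-0 and 0 in each hec1hec2 library at 22°C. Pooled over its 3 libraries, HEC2 was at 2.06 CPM in Col-0 at 22°C. This is 10.9-fold the level that a floor of 3 counts gives over the hec1hec2 group. The spread of the Col-0 counts does not enter this ratio. An exact permutation test of the 6 values gave a two-sided p = 0.1, the smallest that 3 against 3 libraries can give, and HEC2 had too few counts to be tested with all genes. At 28°C HEC2 had 5, 8 and 7 counts in Col-0 and 6, 2 and 4 counts in hec1hec2, so the groups overlapped there. HEC3, the third member of the family, had at most 1 count in any of the 6 libraries at 22°C. Tags from transcript ends cannot tell a full HEC1 transcript from a partial one, and statements on hec1hec2 below refer to the libraries labelled so.

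**Figure D1:**
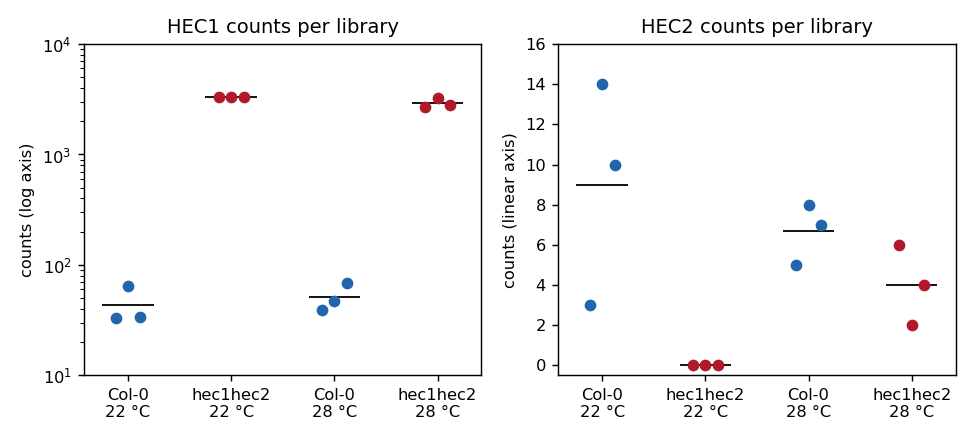
Counts of HEC1 (left, log axis) and HEC2 (right, linear axis) in each library of Col-0 (blue) and hec1hec2 (red) at 22°C and 28°C. Points are libraries and black lines are group means over 3 libraries. HEC1 lies between 33 and 68 counts in Col-0 and between 2691 and 3308 counts in hec1hec2, and HEC2 is at 0 in the hec1hec2 libraries at 22°C.

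The genes around HEC1 and HEC2 did not share this pattern. Of the 40 genes nearest to HEC1 in gene order, 20 on each side, 25 were tested and 0 were called in edgeR's quasi-likelihood test, with log2 fold changes from -0.46 to 0.52 and a lowest FDR of 0.23; 2 had an unadjusted p under 0.05 and DESeq2 called 0. Around HEC2, 19 of 40 were tested and 0 were called, with log2 fold changes from -0.68 to 0.42 and a lowest FDR of 0.062. Of these, 4 had an unadjusted p under 0.05 and DESeq2 called 0. Over all genes, 1.17% were called in either direction. With 40 genes on each side, 1 gene was called higher in each window.

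In all, 209 genes were called at 22°C. Of the 17828 genes tested, 124 (0.696%) were higher and 85 (0.477%) were lower in hec1hec2 than in Col-0. By the FDR alone, 723 genes (4.06%) passed, 383 higher (2.15%) and 340 lower (1.91%). HEC1 had the largest log2 fold change among the called genes, and the other 123 higher genes lay between 1.00 and 2.45. The 3 hec1hec2 libraries lay entirely above the 3 Col-0 libraries for 119 of the 124 higher genes and entirely below them for all 85 lower genes, where 10.3% and 9.98% of all tested genes did so. Both directions were found on each of the 5 chromosomes, where 1.07% (chromosome 2) to 1.39% (chromosome 5) of the tested genes were called.

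**Figure D2:**
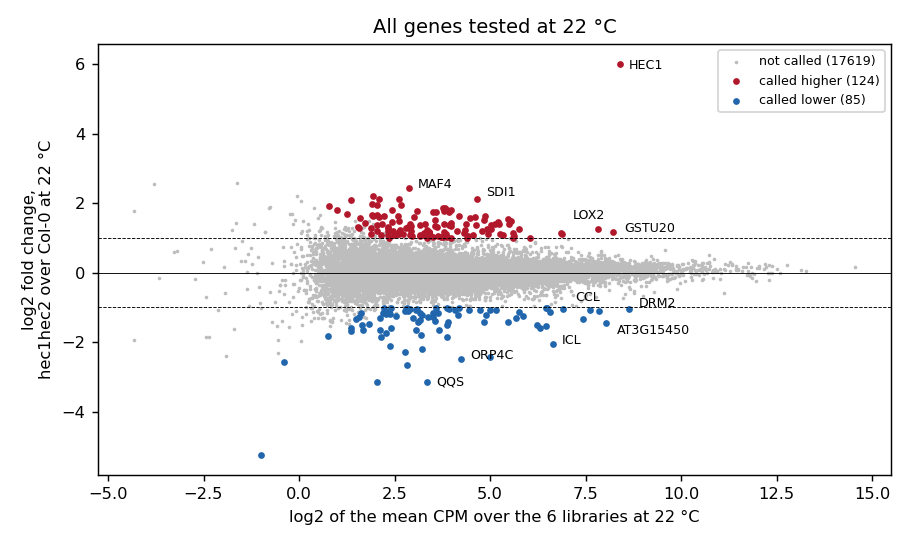
Log2 fold change of hec1hec2 over Col-0 at 22°C against the log2 of the mean CPM over the 6 libraries, for each of the 17828 genes tested. Red points are the 124 genes called higher, blue points the 85 called lower and grey points the rest; dashed lines mark 2-fold. HEC1, at 6.02, lies far above the other higher genes, of which MAF4 is the next at 2.45.

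After HEC1, MAF4 had the largest log2 fold change among the higher genes. MAF4 (AT5G65070), a floral repressor of the FLC family, had 2.35, 1.39 and 3.01 CPM in Col-0 and 14.6, 10.8 and 11.9 CPM in hec1hec2, a log2 fold change of 2.45 (SE 0.29, edgeR FDR = 8.8e-07). It was the only one of 10 tested flowering time genes to be called, where 1.17% of all tested genes were. In the higher direction 2 of the 10 passed the FDR, beside 2.15% of all tested genes. AT1G75945 rose by 2.22 on the log2 scale, and AT3G17520, from no more than 3.01 CPM in Col-0 and from 6.60 to 14.1 CPM in hec1hec2, by 2.12. PER1, a peroxiredoxin known from seeds, had 0.782, 2.09 and 1.93 CPM in Col-0 and 5.04, 5.27 and 9.42 CPM in hec1hec2, while the seed storage genes summed to 0.679 to 2.94 CPM in Col-0 and 0.795 to 3.86 CPM in hec1hec2, so those markers were near 0 in both groups. AT5G37990 rose by 1.86, with a wide spread in Col-0 from 0.645 to 12.1 CPM against 15.8 to 29.4 CPM in hec1hec2, and was not called by DESeq2 (log2 fold change 1.86, adjusted p = 0.31).

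Among the lower genes, the orphan gene QQS stood near the extreme. QQS (AT3G30720), a gene found in Arabidopsis thaliana alone and known for its effect on starch and for heritable epigenetic variation, had 19.3, 19.2 and 16.8 CPM in Col-0 and 2.08, 3.79 and 0.224 CPM in hec1hec2. It fell by 3.14 on the log2 scale (SE 0.30, edgeR FDR = 2e-08). AT2G47780, whose promoter is shown above, fell from 7.30, 7.88 and 6.88 CPM to 0.695, 1.26 and 0.449 CPM, by 3.15. AT2G21640 fell by 2.65 and the oxysterol-binding protein gene ORP4C by 2.49, the latter from 30.6 to 34.6 CPM in Col-0 to 5.38 to 5.90 CPM in hec1hec2. AT5G44440 had 46.1, 62.6 and 53.3 CPM in Col-0 against 7.47, 16.9 and 6.06 CPM in hec1hec2 and fell by 2.42. The endoglucanase family gene GH9B15 and the acetyl-CoA carboxylase gene ACC2 fell by 2.28 and 2.18, and the defensin gene PDF1.4 had 10.4, 6.96 and 7.95 CPM in Col-0 and 2.08, 1.90 and 1.79 CPM in hec1hec2. No hec1hec2 library reached any Col-0 library in these genes. AT1G75490, named after its value was seen, had 0.696 to 1.29 CPM in Col-0 and 0 in each hec1hec2 library, too few counts for a fold change to be given.

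The genes of aliphatic glucosinolate synthesis were higher together. These sulfur-rich defence compounds are built from methionine, whose side chain is lengthened by MAM1, IPMI2 and IMD1 after BCAT4 has removed the amino group, and the core is made by CYP79F1 and CYP83A1. Of 22 tested genes of the pathway, 12 were called higher and 0 lower, 19 passed the FDR alone and the median log2 fold change was 1.12, against a median of -0.0017 over all tested genes. Of all tested genes, 0.696% were called higher and 2.15% passed the FDR in that direction. BCAT4 had 9.12, 2.78 and 7.74 CPM in Col-0 and 28.5, 19.4 and 20.4 CPM in hec1hec2 and rose by 1.82 (SE 0.29, edgeR FDR = 0.00015). MAM1 had 34.1, 11.6 and 22.8 CPM in Col-0 and 82.0, 53.8 and 61.0 CPM in hec1hec2. MAM1 rose by 1.54, and IPMI2 and IMD1 by 1.47 and 1.26. The second Col-0 library was the lowest of its group in each of these 4 genes.

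The core-structure genes CYP83A1 had 35.4, 14.8 and 23.2 CPM in Col-0 and 90.7, 52.9 and 61.2 CPM in hec1hec2, and CYP79F1 rose by 1.75. GSTU20, a glutathione transferase of the same regulon second to HEC1 in mean level among the higher genes, had 188, 168 and 191 CPM in Col-0 and 451, 379 and 410 CPM in hec1hec2 and rose by 1.18 (SE 0.10, edgeR FDR = 1.6e-09). The transporter of the pathway BAT5 rose by 1.41. Of the regulators, MYB28, the main activator of the pathway, had a log2 fold change of 0.42 (FDR = 0.16) and MYB29 of 1.05 (FDR = 0.062, edgeR's quasi-likelihood test), and neither was called. Without the second Col-0 library or the first hec1hec2 library 9 of the genes were called, and DESeq2 called 7, MAM1 (adjusted p = 0.090) and IMD1 (adjusted p = 0.089) not among them.

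Genes of sulfur limitation were also higher. When sulfate is short, plants raise sulfate uptake and reduction and a set of genes that recycle or withhold sulfur, among them SDI1, which represses aliphatic glucosinolate synthesis, and the LSU genes. Of 15 tested genes, 6 were called higher, 0 lower and 12 passed the FDR in the higher direction, with a median log2 fold change of 0.72. The shares called higher and past the FDR in that direction were 0.696% and 2.15% over all tested genes. SDI1 had 10.2, 10.4 and 8.17 CPM in Col-0 and 49.7, 45.5 and 28.7 CPM in hec1hec2 and rose by 2.12 (SE 0.19, edgeR FDR = 6.1e-09). LSU1 rose by 1.65, from 5.59 to 10.7 CPM in Col-0 to 25.3 to 30.4 CPM in hec1hec2, and LSU2 by 1.13. GGCT2;1, which recycles glutathione, rose by 1.96, the sulfate transporter gene SULTR2;1 by 1.08, and BGLU28, a beta-glucosidase able to break down glucosinolates, by 1.99. BGLU28 was low, at 0.430 to 2.32 CPM in Col-0, and was not called without the third Col-0 library (log2 fold change 1.52, FDR = 0.057, edgeR). The sulfate reduction genes APR1, APR2 and APR3 had log2 fold changes of 0.83, 0.61 and 0.70, past the FDR but below 2-fold. The 3 hec1hec2 libraries lay above the 3 Col-0 libraries in 14 of the 15 genes, where they did so in 10.3% of all tested genes. The other gene of the 15, BGLU30, had a log2 fold change of -0.61 (FDR = 0.081).

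Indolic glucosinolates share part of the enzymes but start from tryptophan. Of 11 tested genes 0 were called in either direction by the 2-fold rule (edgeR's quasi-likelihood test). In the higher direction 6 passed the FDR, at log2 fold changes of 0.41 to 0.74. The shares over all tested genes were 1.17% called in either direction and 2.15% past the FDR in the higher direction. In these 11 genes 8 had an unadjusted p under 0.05 and DESeq2 called 0. CYP81F4, a late enzyme, had the highest value at 0.74, and MYB34, a regulator of the indolic branch, had -0.02.

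Jasmonate genes were higher in hec1hec2. Jasmonate is a wound and defence hormone made in steps from plastid lipids by LOX2, AOS and AOC enzymes, and VSP1, VSP2 and CORI3 are known responders to it. Of 13 tested genes, 7 were called higher and 0 lower, and all 13 log2 fold changes were positive with a median of 1.03. Among all 17828 tested genes, 0.696% were called higher and 8854 had a positive log2 fold change. LOX2 had 118, 134 and 154 CPM in Col-0 and 273, 374 and 319 CPM in hec1hec2 and rose by 1.25 (SE 0.12, edgeR FDR = 3.7e-08). AOS had 65.1, 79.1 and 72.9 CPM in Col-0 and 155, 163 and 160 CPM in hec1hec2 and rose by 1.14. The groups of both genes were clear of each other.

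CORI3 rose by 2.12 from 1.07 to 1.86 CPM in Col-0. VSP2 rose by 1.34 and VSP1 by 1.37. The groups of VSP1 overlapped, with 1.56, 2.78 and 2.36 CPM in Col-0 and 6.08, 2.74 and 8.97 CPM in hec1hec2. JAZ1, a repressor of the response, rose by 1.05. MYC2, the central activator, had 27.1 to 36.0 CPM in Col-0 and 31.8 to 39.3 CPM in hec1hec2 and was not called (FDR = 0.73). Without the third hec1hec2 library 4 of the genes were called. AOC1 rose by 1.03 and fell just short of 2-fold without the first (0.91) or the third (0.99) hec1hec2 library.

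Late genes of anthocyanin synthesis were higher and an inhibitor of the pathway was lower. Anthocyanins are pigments made by a common flavonoid route, in which CHS and F3H act early, and by late steps of DFR, LDOX and glycosyl- and acyltransferases. Of 25 tested genes 7 were called higher, 1 lower, and 16 passed the FDR in the higher direction (median log2 fold change 0.60). Beside these counts, 0.696% of all tested genes were called higher and 2.15% passed the FDR in that direction. DFR had 14.3, 13.7 and 15.05 CPM in Col-0 and 53.0, 45.1 and 33.9 CPM in hec1hec2 and rose by 1.62 (SE 0.17, edgeR FDR = 1.5e-07). LDOX rose by 1.42, from 15.1 to 23.9 CPM in Col-0 to 37.5 to 60.8 CPM in hec1hec2. UGT79B1, the glycosyltransferase with a pair of G-boxes in its promoter, had 5.73, 4.17 and 6.45 CPM in Col-0 and 17.9, 22.8 and 14.8 CPM in hec1hec2 and rose by 1.76. The other called genes of late steps were UGT75C1, 3AT1, 5MAT and the glutathione transferase gene GSTF12, at 1.44, 1.52, 1.08 and 1.21.

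The early genes CHS and F3H had log2 fold changes of 0.49 and 0.46, past the FDR and below 2-fold. MYBL2, a small MYB protein that inhibits the late steps, had 16.9, 9.28 and 11.8 CPM in Col-0 and 3.13, 4.01 and 4.93 CPM in hec1hec2 and fell by 1.66 (SE 0.23, edgeR FDR = 1.5e-05). The activator MYB75 had a log2 fold change of 0.67 and was not called (FDR = 0.37). The third hec1hec2 library was the lowest of its group in DFR, LDOX and UGT79B1 and still lay above every Col-0 library.

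**Figure D3:**
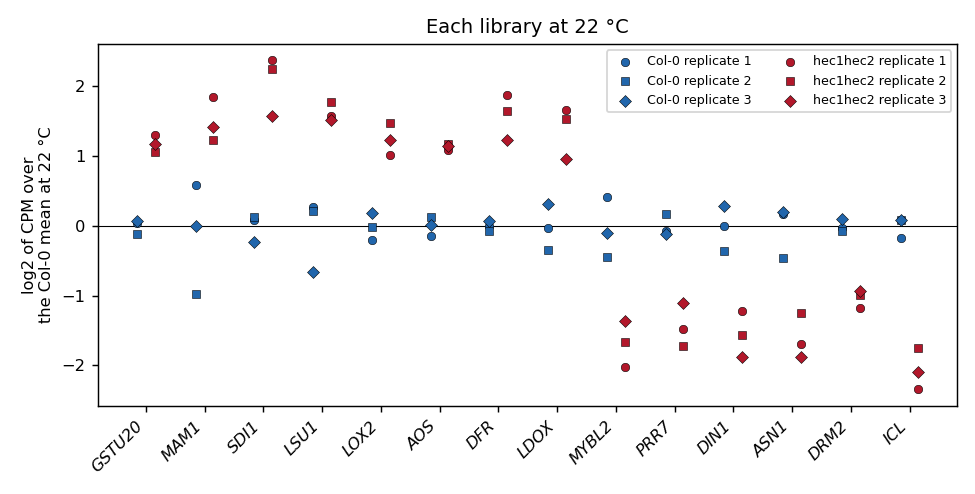
Log2 of the CPM of each library at 22°C over the mean CPM of the 3 Col-0 libraries, for 14 called genes. Blue symbols are Col-0 and red symbols hec1hec2, and circle, square and diamond are replicates 1, 2 and 3. No red symbol overlaps a blue one in its column, and MAM1 shows the low second Col-0 library.

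Genes induced by low energy were lower as a group. In sugar shortage or darkness, kinase signalling raises genes that release carbon from amino acids, cell walls and storage sugars, among them the dark-inducible DIN genes, ASN1 and trehalose-phosphate genes. Of 12 tested genes 6 were called lower and 0 higher, 11 passed the FDR in the lower direction, the median log2 fold change was -0.89 and all 12 had their 3 hec1hec2 libraries below the 3 Col-0 libraries. Over all tested genes 0.477% were called lower, 1.91% passed the FDR in that direction and 9.98% had their libraries so placed. DRM2 (AT2G33830), a dormancy-associated gene, had 525, 510 and 575 CPM in Col-0 and 238, 270 and 281 CPM in hec1hec2 and fell by 1.03 (SE 0.09, edgeR FDR = 2.5e-09). DIN10 had 340, 269 and 342 CPM in Col-0 and 153, 140 and 148 CPM in hec1hec2 and fell by 1.11. ASN1, a glutamine-dependent asparagine synthetase, had 133, 85.6 and 135 CPM in Col-0 and 36.5, 49.7 and 32.1 CPM in hec1hec2 and fell by 1.58.

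DIN1 (also SEN1) fell by 1.52, from 102 to 160 CPM in Col-0 to 35.4 to 56.1 CPM in hec1hec2. BCAT2, a branched-chain aminotransferase, fell by 1.84 but spread from 10.2 to 35.9 CPM in Col-0, and TPS11 fell by 1.08. AT3G15450, a highly expressed gene outside the list, had 416, 332 and 404 CPM in Col-0 and 122, 160 and 143 CPM in hec1hec2 and fell by 1.44 (SE 0.12, edgeR FDR = 1.6e-09). Without the third Col-0 library or the first hec1hec2 library 4 of the 12 genes were called. DRM2, close to 2-fold, was not called in these same fits, at log2 fold changes of -0.97 and -0.96.

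Both key enzymes of the glyoxylate cycle were lower as well. Seedlings use this cycle to turn the acetyl units of seed oil into sugar, through isocitrate lyase (ICL) and malate synthase (MLS). ICL had 143, 171 and 171 CPM in Col-0 and 31.8, 47.8 and 37.9 CPM in hec1hec2 and fell by 2.05 (SE 0.15, edgeR FDR = 1.4e-10). MLS had 37.5, 47.5 and 39.3 CPM in Col-0 and 11.3, 19.2 and 16.6 CPM in hec1hec2 and fell by 1.42. The other 4 tested genes of this list, which was chosen after values were seen, were not called. PCK1, which makes phosphoenolpyruvate for sugar synthesis, passed the FDR at -0.44, while CSY2, CSY3 and PMDH2 lay between -0.14 and 0.10. The shares over all tested genes were 0.477% called lower and 1.91% past the FDR in that direction.

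Several clock genes of the day and evening were lower. The plant clock links morning repressors, CCA1 and LHY, with the PRR genes of the day and the evening complex. Of 19 tested clock genes, PRR7 alone was called, and 5 passed the FDR in the lower and 1 in the higher direction (median log2 fold change -0.14). Over all tested genes 1.91% passed the FDR in the lower and 2.15% in the higher direction. PRR7 had 11.99, 14.1 and 11.6 CPM in Col-0 and 4.52, 3.79 and 5.83 CPM in hec1hec2 and fell by 1.42 (SE 0.20, edgeR FDR = 1.6e-05). FKF1, PRR5, ELF4 and TOC1 had log2 fold changes of -0.84, -0.72, -0.62 and -0.62, all past the FDR, and RVE8, a morning activator, had 0.52 (FDR = 0.017). CCA1 had 37.2 to 51.6 CPM in Col-0 and 42.8 to 52.1 CPM in hec1hec2 (FDR = 0.83) and LHY a log2 fold change of 0.39 (FDR = 0.065, edgeR's quasi-likelihood test). The hour of harvest is not given in the sources used here, and its part in these values was not tested.

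The PIF genes were examined next, with 2 genes known to respond to PIF4. Of 7 tested PIF genes 0 were called by edgeR's quasi-likelihood test, where 1.17% of all tested genes were, 3 had an unadjusted p under 0.05 and DESeq2 called 0. PIF4, the main PIF of warmth responses, had 15.4, 17.62 and 14.8 CPM in Col-0 and 11.1, 8.64 and 11.2 CPM in hec1hec2, a log2 fold change of -0.62 that passed the FDR (FDR = 0.036, edgeR) but not 2-fold. The FDR was above 0.05 in 7 of 13 alternatives, up to 0.17, among them DESeq2, the fit of all 18 libraries and the fits without any 1 Col-0 library or without the second or the third hec1hec2 library. PIF3 had -0.58 (FDR = 0.057), and PIF1, PIF5 and PIF7 had -0.16, -0.16 and 0.01 (lowest FDR 0.58). YUC8, an auxin synthesis gene that PIF4 activates, had 6.51, 3.48 and 3.22 CPM in Col-0 and 2.43, 4.01 and 3.14 CPM in hec1hec2, and IAA29, an auxin response gene, had 0.521 to 1.86 CPM and 1.12 to 2.53 CPM, both with overlapping groups (FDR = 0.55 and 0.75).

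Among 16 tested inhibitors of PIFs and light signalling genes PAR1 alone was called, where 1.17% of all tested genes were. Of the 16, 12 had a negative log2 fold change, as did 8974 of the 17828 genes tested. In the lower direction 2 of the 16 passed the FDR, beside 1.91% of all tested genes. PAR1, a helix-loop-helix inhibitor of PIFs induced by shade, had 12.2, 10.9 and 10.7 CPM in Col-0 and 5.73, 5.69 and 4.49 CPM in hec1hec2 and fell by 1.07 (SE 0.21, edgeR FDR = 0.0015). It missed 2-fold at -0.97 without the third hec1hec2 library. The photoreceptor gene PHYA had a log2 fold change of -0.65 (FDR = 0.00016) and PHYB of -0.17 (FDR = 0.76). HFR1, another inhibitor, was low, at 1.39 to 3.13 CPM in the 6 libraries, and PIL1 had too few counts to be tested.

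Growth hormone genes were set beside the share called over all genes. None of 17 auxin synthesis and response genes, 12 auxin transport genes, 18 SAUR genes, 11 gibberellin and brassinosteroid genes or 8 cytokinin response genes was called in edgeR's quasi-likelihood test, where 1.17% of all tested genes were called, and 4 of these 66 genes passed the FDR, 3 of them higher, beside 4.06% of all tested genes. Of the 66, 17 had an unadjusted p under 0.05 and DESeq2 called 0. All 8 cytokinin genes had positive log2 fold changes, 0.22 to 0.73, and none passed the FDR. Of 16 cell wall loosening genes, XTH22, also a touch-induced gene, fell by 1.22, from 21.9 to 29.0 CPM in Col-0 to 9.20 to 11.5 CPM in hec1hec2. Of 20 photosynthesis genes 0 were called by edgeR or by DESeq2, 6 had an unadjusted p under 0.05, and log2 fold changes ran from -0.10 to 0.39.

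**Figure D4:**
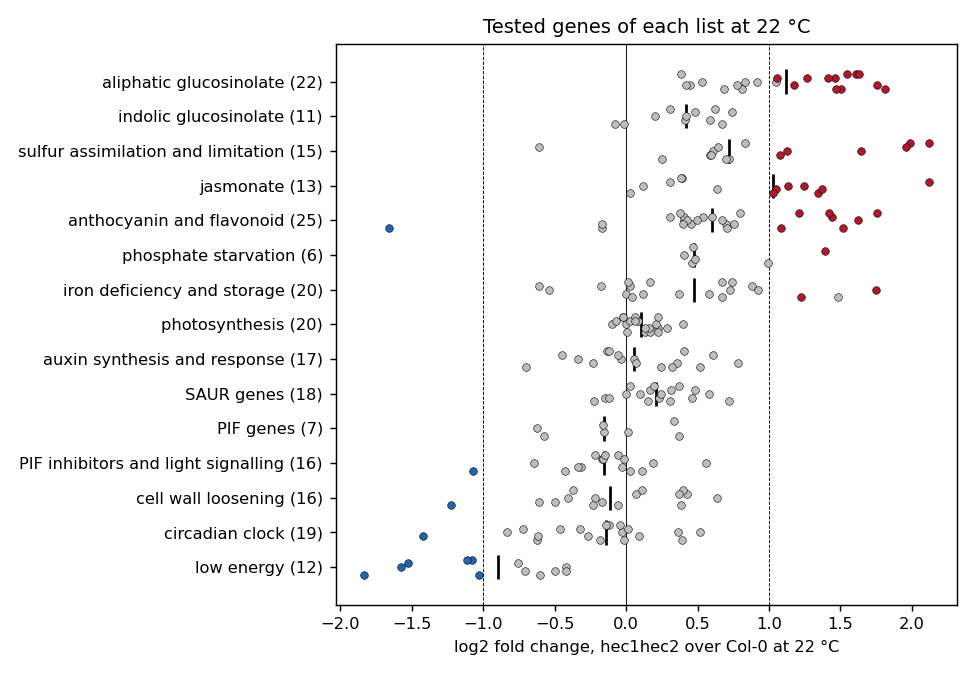
Log2 fold change of hec1hec2 over Col-0 at 22°C for the tested genes of 15 lists, with the number of tested genes in parentheses. Each point is 1 gene, red where called higher, blue where called lower and grey where not called, black bars are medians of the list and dashed lines mark 2-fold. Medians range from 1.12 for aliphatic glucosinolate synthesis to -0.89 for low energy.

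Genes expressed in roots were higher in part. PRP1 and PRP3, proline-rich cell wall proteins of root hairs, were called among 10 tested root markers, and rose by 1.39 and 1.13. PRP3 had 59.4, 87.7 and 73.5 CPM in Col-0 and 133, 195 and 155 CPM in hec1hec2, and was short of 2-fold, at 0.97, without the second hec1hec2 library. The 15 listed root markers summed to 2742 to 2928 CPM in Col-0 and 3108 to 3292 CPM in hec1hec2, and no root marker sum of one genotype reached the other, while the 9 shoot markers summed to 29712 to 33149 and 29872 to 36508 CPM. Over all tested genes 0.696% were called higher. Of 17 tested genes annotated as root hair specific, a list chosen after values were seen, 8 were called higher and 0 lower, with a median log2 fold change of 1.02. Their summed CPM was 116, 175 and 145 in Col-0 and 180, 367 and 291 in hec1hec2, so that the first hec1hec2 library lay close to the highest Col-0 library. Of these genes 3 were called without the second hec1hec2 library or without the first Col-0 library, and 5 without the third hec1hec2 library or in the fit of all 18 libraries. RHS19, a peroxidase gene, had 17.5, 34.1 and 25.2 CPM in Col-0 and 33.7, 74.2 and 57.0 CPM in hec1hec2, which overlap. The part of the root share of the sampled tissue in these values was not tested.

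Iron and phosphate genes were examined as well. IRT1, the iron uptake transporter of root epidermis, had 3.13, 0.464 and 11.4 CPM in Col-0 and 15.1, 20.2 and 17.3 CPM in hec1hec2 and rose by 1.75 (SE 0.36, edgeR FDR = 0.0028). The log2 fold change moved with single Col-0 libraries and was 1.21 without the second and 3.33 without the third Col-0 library. F6'H1, which makes iron-mobilising coumarins, rose by 1.23 from 2.35 to 4.41 CPM. Neither was called in the fit of all 18 libraries (FDR = 0.062 and 0.065), IRT1 was not called by DESeq2 (adjusted p = 0.37), and F6'H1 was not called without the first Col-0 library (log2 fold change 1.01, FDR = 0.053). They were the called genes of 20 tested iron genes, where 1.17% of all tested genes were called. The second Col-0 library was the lowest in IRT1 and in the regulators bHLH38 and bHLH100, at 0.464 CPM in each. The number called was 5 without the third Col-0 library, 4 without the second hec1hec2 library, 0 in the fit of all 18 libraries and 1 by DESeq2. Of 6 phosphate starvation genes 1 was called, all 6 had positive log2 fold changes and 4 passed the FDR in the higher direction. The shares over all tested genes were 0.696% called higher and 2.15% past the FDR in that direction. AT4, a non-coding RNA of phosphate starvation, had 17.98, 22.0 and 22.1 CPM in Col-0 and 59.6, 47.8 and 56.5 CPM in hec1hec2 and rose by 1.39 (SE 0.14, edgeR FDR = 9.6e-08). The phosphate transporter gene PHT1;1 had a log2 fold change just under the 2-fold limit (FDR = 0.0014, edgeR), from 15.5 to 17.5 CPM in Col-0 and from 25.6 to 42.7 CPM in hec1hec2.

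Of the 4 genes of the thalianol cluster, a group of neighbouring root genes that make a triterpene, listed after values were seen, 3 were called higher. The share called higher over all tested genes was 0.696%. THAS1, the thalianol synthase, had 16.2, 25.3 and 12.04 CPM in Col-0 and 44.8, 40.7 and 43.1 CPM in hec1hec2 and rose by 1.27. The second Col-0 library was the highest of its group for all 4 genes. Of them, 1 was called without the first or the third Col-0 library or without the third hec1hec2 library.

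Few calls could be looked for among the remaining stress lists, since 1.17% of all tested genes were called. None of 8 tested salicylic acid and immunity genes or 5 heat shock genes was called in edgeR's quasi-likelihood test, 0 of these 13 passed the FDR, 2 had an unadjusted p under 0.05 and DESeq2 called 0. Of 11 cold and dehydration genes, COR15B fell by 1.49 (FDR = 0.027, edgeR) from 3.94 to 6.66 CPM to 0.897 to 3.16 CPM. This call was lost without the first or the third library of either genotype (log2 fold change -1.49 to -1.18, FDR = 0.078 to 0.19) and in the fit of all 18 libraries, and DESeq2 gave it no adjusted p.

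The same genotypes after 24 h at 28°C, in separate libraries, were used to see whether the difference at 22°C was present there too. At 28°C 198 genes (1.11% of those tested) were called higher and 41 (0.23%) lower, 239 (1.34%) in all, and by the FDR alone 478 (2.68%) were higher and 304 (1.71%) lower, 782 (4.39%) in all. Of the 124 genes higher at 22°C, 117 had the same sign at 28°C, where 49.2% of all tested genes were positive. Of the 124, 56 were called higher again, and their median log2 fold change over all 124 was 1.32 at 22°C and 1.07 at 28°C. Of the 85 lower genes 75 had the same sign, where 50.8% of all tested genes were negative at 28°C. Of the 85, 14 were called lower again, and the medians over the 85 were -1.27 and -0.61. The lower genes were thus nearer to 0 at 28°C in the median. These genes were chosen by their value at 22°C, so that a smaller value at 28°C is no test, and the difference itself was tested over all genes.

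In the test of genotype by temperature, 24 genes (0.135% of those tested) were called over all genes, 16 (0.0897%) with a higher and 8 (0.0449%) with a lower value at 28°C, and 52 (0.292%) passed the FDR, 30 (0.168%) higher and 22 (0.123%) lower. These counts depended on the libraries fitted: 3 genes were called in the fit of all 18 libraries, 38 with the replicate number as a block and 20 by DESeq2. Among the genes lower at 22°C 17 passed this FDR, all with a difference nearer to 0 or turned at 28°C, and among the higher genes 2 did. Both sets were chosen by values at 22°C that also enter this test, so the shared direction within them is no separate result. CCL (AT3G26740), named CCR-LIKE, had 248, 267 and 277 CPM in Col-0 and 119, 127 and 133 CPM in hec1hec2 at 22°C, and 532, 551 and 552 CPM against 716, 571 and 625 CPM at 28°C. Its log2 fold change was -1.06 at 22°C and 0.23 at 28°C, a difference of 1.29 (SE 0.13, interaction FDR = 4.7e-07, edgeR). AT5G23240, a DnaJ-type chaperone gene (DJC76), turned from -1.35 to 1.44, with 12.7 to 13.3 CPM in Col-0 against 3.58 to 6.06 CPM at 22°C and 3.07 to 5.67 CPM against 11.1 to 15.6 CPM at 28°C. It is the 1 gene lower at 22°C that was called higher at 28°C.

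MEE14, the neighbour of AT2G15880 on the same strand, had 132, 130 and 131 CPM in Col-0 and 55.6, 62.8 and 60.6 CPM in hec1hec2 at 22°C. MEE14 had a log2 fold change of -1.14 at 22°C and -0.20 at 28°C (interaction FDR = 0.00019, edgeR), and AT2G15880 had -1.84 and -0.88 (interaction FDR = 0.56). Of 13 named genes that passed this FDR, CCL and AT5G23240 alone also passed it in the fit of all 18 libraries, where MEE14 had FDR = 0.068 and the log2 differences were almost the same. The low-energy genes DRM2, DIN1 and ASN1 were likewise nearer to 0 at 28°C, at -0.25, -0.41 and -0.62, as were ICL at -0.93 and PRR7 at -0.37, each with an interaction FDR of 0.034 or lower and, in the fit of all 18 libraries, from 0.18 to 0.45. In all of these genes but AT5G23240, Col-0 was higher at 28°C than at 22°C.

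The higher groups are given with their values at 28°C, and no difference between lists was tested. Beside the counts below, 1.11% of all tested genes were called higher at 28°C and 1.34% in either direction. The interaction FDR was passed by 0.292% of all tested genes. The median of the aliphatic glucosinolate genes was 2.48 at 28°C, with 16 of 22 called higher, and IPMI1 alone of the 22 passed the interaction FDR (0.92 at 22°C, 3.38 at 28°C, FDR = 0.0021, edgeR). The sulfur limitation genes had a median of 0.26 at 28°C, where 0 of 15 were called by edgeR or DESeq2 and 6 had an unadjusted p under 0.05. Of the 15, 2 passed the interaction FDR. SDI1 went from 2.12 to 0.34 and LSU1 from 1.65 to 0.21, with interaction FDRs of 0.010 and 0.0091, and of 0.50 and 0.56 in the fit of all 18 libraries. In level, SDI1 in hec1hec2 was 28.7 to 49.7 CPM at 22°C and 5.34 to 8.78 CPM at 28°C, where Col-0 had 4.70 to 6.48 CPM. Jasmonate genes had a median of 0.37 at 28°C with LOX2 and CORI3 called, and none of them passed the interaction FDR. Of the anthocyanin and flavonoid genes 1 was called at 28°C, LDOX, with 0.433, 0.270 and 0.204 CPM in Col-0 and 1.56, 2.93 and 1.92 CPM in hec1hec2 (log2 fold change 2.72, edgeR FDR = 0.013). DFR was at 0 to 0.216 CPM in Col-0 and 0.213 to 1.34 CPM in hec1hec2 there and was not called. QQS and MAF4 kept their differences, at -3.93 and 2.60, and 10 of 17 root hair genes were called higher at 28°C.

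**Figure D5:**
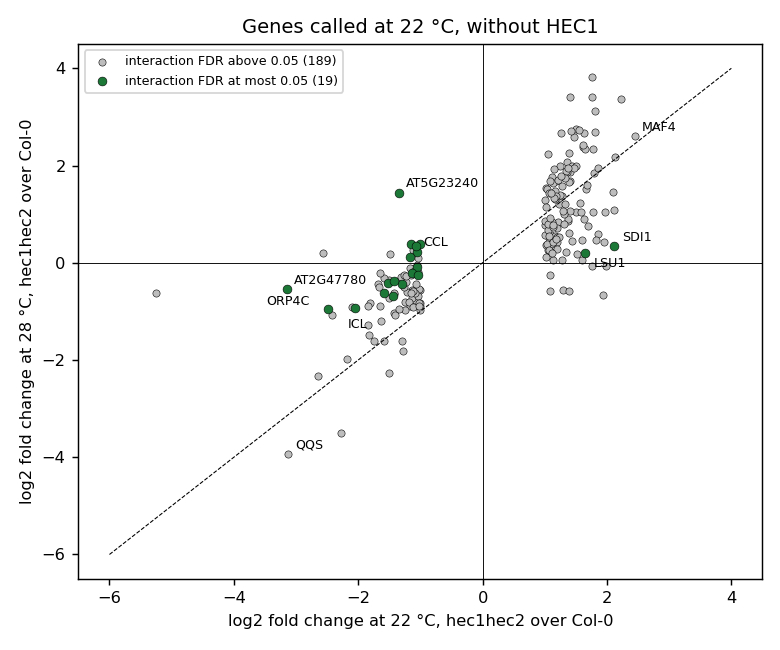
Log2 fold change of hec1hec2 over Col-0 at 28°C against that at 22°C for the genes called at 22°C, HEC1 left out. Green points are the 19 genes with an interaction FDR of at most 0.05, grey points the other 189, and the dashed line marks equal values. Among the lower genes green points lie above the line, with AT5G23240 at 1.44, and SDI1 and LSU1 lie below it among the higher genes.

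The motifs marked in the promoters above were counted in all genes with a promoter in the annotation. Both strands were searched, in the 250 bases before the start. A G-box, CACGTG, was found in 15 of 123 promoters of higher genes (12.2%) and 9 of 83 of lower genes (10.8%), against 7.59% of 17573 promoters of tested protein-coding genes. A PBE-box was found in 20 (16.3%) and 13 (15.7%), against 11.2%. No test was made of these shares. Of the 22 aliphatic glucosinolate promoters 2 held a G-box, and of the 12 low-energy promoters 1 did. Besides those shown above, the genes named by rule with a G-box were AT3G17520, PER1, AT5G37990, AT2G21640, DFR, AOS, ASN1 and PIF5. It begins 14 bases before the start in DFR and 6 bases before it in AOS.

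The evening element, AAAATATCT or AGATATTTT, was looked for after the lower clock genes had been seen. It stood in 9 of 83 promoters of lower genes (10.8%) and 2 of 123 of higher genes (1.63%), against 2.54% of all. The lower genes with it were MYBL2, AT5G44260, AT1G72070, CYP71B26, COR27, MEE14, AT5G62360, CCL and AT5G43440, and the higher ones F6'H1 and AT4G25790. COR27, a cold-induced gene of the clock, had 15.9, 15.3 and 15.7 CPM in Col-0 and 6.60, 7.59 and 6.95 CPM in hec1hec2 and fell by 1.15 (edgeR FDR = 0.0002). In the windows of CCL and MYBL2 an annotated exon overlaps the promoter, and they are not printed.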

How the data were processed

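RNA-seq by 3′ Tag-Seq was performed on whole seedlings, and all 18 columns of the count table were assigned to samples from their labels. The authors checked reads with FastQC, aligned them with TopHat and Bowtie2, counted them on TAIR10 genes with HTSeq and deposited raw counts without normalization. Program versions, strand setting and duplicate removal are not given in the sources used here, so values of overlapping or antisense genes and of close copies are uncertain. Intervals and floors cover counting error only.

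From the deposited counts, edgeR version 4.0.16 (R version 4.3.3) fitted a quasi-likelihood model of 4 groups over 12 libraries, with TMM normalization and filterByExpr by group, which kept 17828 of 33655 rows, 1107 of which carry other identifiers than loci. The pifQ libraries were left out on the strength of an earlier result on 1 of them that was not tested here, and the fit of all 18 libraries is an alternative. The common biological coefficient of variation was 0.0883. SE is the absolute log2 fold change over the square root of F.

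Named genes are those the study measured or targeted, up to 10 called genes a direction with the largest log2 fold change, groups apart and at least 5 CPM, up to 4 called members a list, the 2 highest called in level a direction, and the 4 with the lowest interaction FDR; other names were chosen after values were seen. The members, the 31 lists and this rule were chosen with earlier results of these data known, and 3 further lists and the evening element after values were seen. Symbols came from the lists for listed genes and otherwise from RefSeq TAIR10.1 by locus, where 32548 of 32548 loci were found. A gene without a symbol there is named by its locus. Promoter sequence was read by locus from RefSeq TAIR10.1, since the count table holds no coordinates.

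On simulated data for the comparison at 22°C, 92 of 100 genes given a log2 change of 1.5 and 100 of 100 given 2.5 were called, with 2 unchanged genes called among 17611. For the interaction 82 of 100 and 95 of 100 were called, with 4 unchanged. Alternatives were RLE normalization, DESeq2 version 1.42.0, other filters, all 18 libraries, the 6 libraries of a contrast, the replicate number as a block, FDR alone, a test against 1.2-fold, each library at 22°C left out, a promoter window of 150 bases and windows of 10 and 40 neighbours.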

Additional observations from a re-analysis of the deposited data

Results flagged for a closer look

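The difference between hec1hec2 and Col-0 itself differed between 22°C and 28°C, by the interaction test in edgeR over all genes, in 13 of the named genes. Named genes were mostly chosen by a call at 22°C, whose values enter this test, and some by a low interaction FDR. Each value below is the log2 fold change of hec1hec2 over Col-0 at 28°C minus that at 22°C. Of the genes lower at 22°C, AT5G23240 had 2.79 (FDR = 1.6e-05), CCL 1.29 (FDR = 4.7e-07) and MEE14 0.93 (FDR = 0.00019). Among the low-energy genes the value was 0.78 for DRM2 (FDR = 0.0018), 1.11 for DIN1 (FDR = 0.0064) and 0.95 for ASN1 (FDR = 0.030), and for AT3G15450 it was 0.77 (FDR = 0.027). ICL had 1.12 (FDR = 0.0051), PRR7 1.05 (FDR = 0.034), ORP4C 1.55 (FDR = 0.0036) and AT2G47780 2.61 (FDR = 0.032). Of the genes higher at 22°C, the sulfur limitation genes SDI1 and LSU1 had -1.78 (FDR = 0.010) and -1.44 (FDR = 0.0091). In the fit of all 18 libraries 2 of the 13 passed the FDR (CCL and AT5G23240), with DESeq2 9 did and with the replicate number as a block 13 did. In 7 of the 13 the FDR was passed in each fit that left out 1 library at 22°C. AT2G47780, PRR7, ASN1 and AT3G15450 lost it in 4 or 5 of those 6 fits (highest FDR 0.10, 0.13, 0.15 and 0.11), and LSU1 and DIN1 without the third Col-0 library (FDR = 0.066 and 0.054).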

How the results depend on the processing

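The 209 calls at 22°C ranged from 154 in the fit of all 18 libraries and 158 by DESeq2 to 256 without a filter on low counts, and by the FDR alone 723 genes passed, 383 higher and 340 lower. A test against 1.2-fold gave 299, of which 144 were lower. At 28°C the FDR alone gave 782 genes and the fit of all 18 libraries 156, against 239. The interaction gave 52 genes by the FDR alone, 57 without a filter, 3 in the fit of all 18 libraries and 38 with the replicate number as a block, against 24. Leaving out 1 library at 22°C in turn gave 158 to 217 calls at 22°C, 95 to 136 higher and 63 to 81 lower, 241 to 261 calls at 28°C and 16 to 29 for the interaction. PIF7, at 0.01 and not called, ranged from -0.15 to 0.19 when 1 library was left out, and was negative without the third Col-0 library and without the first (-0.03) or the third (-0.10) hec1hec2 library. Of the 50 called genes that are named by rule, 39 were called in every alternative run on them, and 629 of 650 alternative values stayed called, with 0 turned in sign. The causes of these changes were not tested. The replicate numbers were not shown to pair the libraries: the correlation of same-numbered libraries' deviations was 0.189, 0.073 and 0.057 at 22°C and 0.053, 0.053 and 0.059 at 28°C, the third hec1hec2 library at 22°C correlated better with the second Col-0 library (0.064), and a replicate block gave 231 calls at 22°C. In the last 150 bases before the start, G-boxes stood in 10.6% of higher and 7.23% of lower genes, against 5.80% of all tested. HEC2 and HEC3 did not pass the filter on low counts and were not tested in the fit of 12 libraries.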
